A study of Mus musculus with 12 samples.

Results

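The genes described here were 10 transcription factors of the FOS, JUN, ATF and EGR families, measured in sorted basal keratinocytes of mouse hard palate. They were Fos, Fosb, Fosl1, Fosl2, Jun, Junb, Jund, Atf3, Egr1 and Egr2. They were taken by symbol from a count table of 23420 genes, and all 10 passed the filter on low counts, as did 11719 genes in all. The libraries came from 6 FVB mice of genotype K5-tTA(+/-); tetO-H2B-GFP(+/-), in which the keratin 5 promoter drives a transactivator of a histone reporter that doxycycline silences. After a chase of 14 days on doxycycline, CD49f+ cells of each mouse were sorted into a GFP-HI fraction, described by the submitters as infrequently dividing, and a GFP-LO fraction, described as frequently dividing. Both fractions shared the transgenes, the doxycycline, an enzymatic dissociation at body temperature and the sort, so the table held no library from undissociated tissue. Mice B1M, B3M, B4M, B5M and B7M were 49 days old and B7F was 71 days old. Each of the 12 libraries was made from 200 to 1000 cells. What was sampled is limited by the CD49f gate and by the keratin 5 promoter, which is active in basal keratinocytes.

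Proteins of the FOS, JUN and ATF families pair through leucine zippers into the dimeric factor AP-1, which binds short DNA sites in promoters and enhancers. FOS proteins bind DNA only as partners of another zipper protein, whereas JUN proteins also pair with each other. EGR proteins are zinc finger factors that bind GC-rich sites. The genes are called immediate early because growth factors, wounding, heat and other stresses induce them within minutes through kinases that act on factors already present, and enzymatic dissociation of tissue is a known inducer of many of them. In keratinocytes AP-1 also takes part in proliferation and in the start of differentiation.

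None of the 10 genes passed the test for a difference between GFP-HI and GFP-LO cells. Of all genes tested, 0.469% were called higher and 0.0597% lower in GFP-HI, so this is near the background. In the test for a difference between mice 7 of the 10 passed, against 9.68% of all genes tested. A difference between mice can lie in the animal, its age or the handling of its tissue, which were not told apart. Fos, Jun and Egr1 were abundant in every library of both fractions. In mouse B3M, 9 of the 10 genes had the lowest mean level of the 6 mice, against 2435 of the 11719 genes tested. For Fosl1 and Atf3 the margin was wide in both fractions. Levels below are CPM, gene counts divided by library totals that were scaled by the trimmed mean of M-values. In bulk libraries, fewer expressing cells and less RNA per cell cannot be told apart.

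Library totals were 6678444 to 10547665 counts, of which the ribosomal precursor gene Rn45s held 31.5% to 59.8%. A count of 0 allowed up to 0.258 to 0.433 CPM, for counting error only. The basal keratins Krt5 and Krt14 were at least 4350 and 6393 CPM in every library. Among defining markers of other cells, Ptprc (leukocytes) reached at most 2.90 CPM, Pecam1 (endothelium) 4.71, Col1a1 (fibroblasts) 5.40 and Dct (melanocytes) 1.32. Other genes of these marker lists were higher, with Dcn at 247 to 615 CPM, Thy1 at 25.5 to 52.7, Fbln1 at 21.3 to 42.0, Cd74 at up to 21.5 and Pmel at up to 6.29. Keratins of suprabasal cells were present as well, with Krt76 at 659 to 2067 CPM, Krt13 at 135 to 1283 and Krt10 at 13.3 to 321. Summed over the suprabasal list, B3M had 2413 CPM in GFP-HI and 1852 in GFP-LO, within the range of the other mice in each fraction. Genes with at least 1 count numbered 12312 to 19023 per library, with 12810 in B3M GFP-HI and 14872 in B3M GFP-LO. B1M had 12312 and 13101 such genes in GFP-HI and GFP-LO, fewer than B3M in each fraction.

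Per kilobase of annotated exon, which allows genes to be set side by side, Fos was the highest of the group at 688 ± 164 CPM per kb (SD over 12 libraries). Fos was above Atf3 in 12 of 12 libraries, although their ranges overlapped. Atf3, at 381 ± 135, and Jun, at 377 ± 104, did not differ beyond their spread, since Atf3 was the higher one in 6 of 12 libraries. Egr1 followed at 313 ± 113 CPM per kb and was below Jun in 9 of 12 libraries, with overlapping ranges. Junb, at 164 ± 38.5, was below Egr1 in 12 of 12 libraries, again with overlapping ranges. Fosb, at 142 ± 68.5, was close to Junb, which was higher in 8 of 12 libraries, and Fosl1, at 84.9 ± 39.3, was below Fosb in 11 of 12. Jund, at 67.4 ± 8.48, had the narrowest spread relative to its level and was below Fosl1 in 8 of 12 libraries. Fosl2, at 27.2 ± 4.52, and Egr2, at 5.44 ± 2.998 CPM per kb, lay at the bottom, each below its upper neighbour in 12 of 12 libraries with no overlap of ranges.

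**Figure D1:**
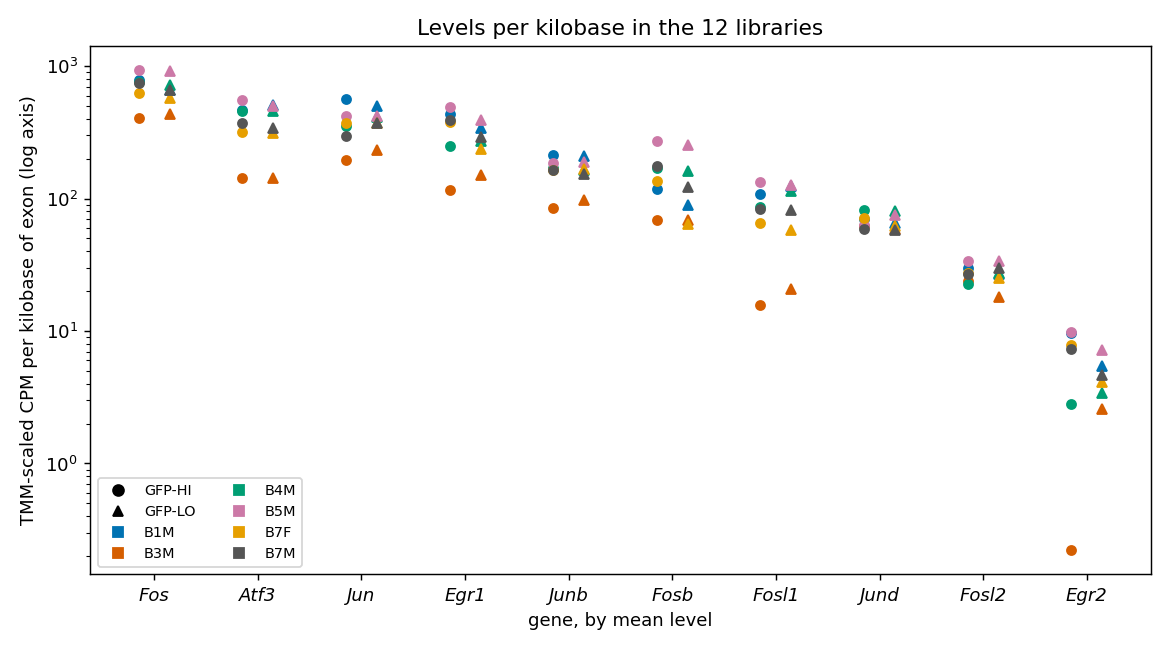
Level of each gene per kilobase of exon (CPM per kb, log axis) in 12 libraries, with circles for GFP-HI, triangles for GFP-LO and colours for mice; genes are ordered by mean level. Fos lies on top at a mean of 688 CPM per kb and Egr2 at the bottom at 5.44, and the B3M points lie low for most genes.

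Promoters of 8 of the 10 genes were read from a table of RefSeq sequences (GRCm38.p6), each spanning 250 bases before to 50 bases after the gene start. Those of Egr1 and Fosl1 were not analysed here. Both strands were searched for the CArG box of serum response factor, the AP-1 site TGACTCA, whose reverse strand reads TGAGTCA, the cyclic AMP element TGACGTCA, the Jun promoter site TGACATCA and the EGR sites GCGTGGGCG and GCGGGGGCG. Fosb, Fosl2, Jun and Egr2 held 1 match each, none overlapping another, and these stretches are shown because they are the matches found: an EGR site in Fosb and Fosl2, the Jun promoter site in Jun and a CArG box in Egr2. Capitals mark the match, written 5′ to 3′ on the gene's strand.
Fosb, chr7:19310047-19310135, minus strand: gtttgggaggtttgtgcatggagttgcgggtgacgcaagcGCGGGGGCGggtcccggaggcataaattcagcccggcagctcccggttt
Fosl2, chr5:32136353-32136441, plus strand: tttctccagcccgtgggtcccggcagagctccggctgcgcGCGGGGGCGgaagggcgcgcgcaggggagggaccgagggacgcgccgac
Jun, chr4:95052220-95052307, minus strand: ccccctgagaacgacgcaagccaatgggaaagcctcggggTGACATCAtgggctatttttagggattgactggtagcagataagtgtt
Egr2, chr10:67537757-67537846, plus strand: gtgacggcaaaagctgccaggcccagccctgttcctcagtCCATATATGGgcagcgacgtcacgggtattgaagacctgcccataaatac
Of 32851 promoters of this length, GCGGGGGCG was found in 2.91%, TGACATCA in 3.62% and the CArG box in 1.63%. The other motifs, found in 5.20% (AP-1 site), 1.79% (cyclic AMP element) and 0.612% (GCGTGGGCG) of promoters, were in none of the 8 windows, and Fos, Junb, Jund and Atf3 had no match to any motif in this window.

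The FOS proteins were compared first. Fos (chr12:85473901-85477270 of mm10, plus strand, 4 exons) encodes the founding member of the family. It ranged from 856 to 1961 CPM with a median of 1569 in GFP-HI libraries, against 915 to 1941 CPM with a median of 1392 in GFP-LO libraries. The fractions overlapped almost completely, the lowest library of each being B3M and the highest B5M. The paired difference, GFP-HI minus GFP-LO, was 0.09 ± 0.06 on the log2 scale (SE, adjusted p = 0.798), with 5 of 6 mice higher in GFP-HI.

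Fosb (chr7:19302696-19310045, minus strand, 4 exons) encodes a close relative of FOS, and it came nearest to a difference between the fractions. It had 261 to 1020 CPM with a median of 579 in GFP-HI libraries, against 242 to 956 CPM with a median of 401 in GFP-LO libraries. Every mouse had more Fosb in GFP-HI, from B3M with 261 against 260 CPM to B7F with 512 against 242 CPM. The log2 difference was 0.36 ± 0.12, with a 95% interval of 0.11 to 0.61, and it was 0.22 without B7F. Its unadjusted p was 0.00888 and its adjusted p 0.429, so it did not pass the threshold of 0.05 over all genes. Without a filter on low counts the same test called Fosb (log2 difference 0.35, adjusted p = 0.00518), and over the other 12 settings tried its adjusted p was 0.07 (DESeq2) to 0.999.

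Fosl1 (chr19:5447698-5455938, plus strand, 4 exons) encodes FRA1 and Fosl2 (chr5:32136472-32157839, plus strand, 4 exons) encodes FRA2, FOS relatives that lack the strong activation domain of FOS. Fosl1 had 26.8 to 226 CPM with a median of 145 in GFP-HI libraries, against 35.5 to 215 CPM with a median of 168 in GFP-LO libraries. B3M stood alone at the low end of both fractions, and the remaining libraries overlapped. Fosl1 shares 1155 exonic bases with Ccdc85b on the opposite strand, and the strand setting of the counting is not given in the sources used here, so reads of these genes cannot be told apart. Fosl2 had 134 to 200.0 CPM with a median of 159 in GFP-HI libraries, against 106 to 198 CPM with a median of 158 in GFP-LO libraries. The log2 differences were -0.11 ± 0.09 for Fosl1 (adjusted p = 0.833) and 0.05 ± 0.09 for Fosl2 (adjusted p = 0.936), both within the spread between mice.

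Among the JUN genes, Jun (chr4:95049036-95052222, minus strand, 1 exon) encodes the main activating JUN protein. It had 623 to 1809 CPM with a median of 1157 in GFP-HI libraries, against 736 to 1602 CPM with a median of 1256 in GFP-LO libraries. The top library of each fraction was B1M and the bottom one B3M, and 3 of 6 mice were higher in GFP-HI. Junb (chr8:84976909-84978748, minus strand, 1 exon) encodes a JUN protein of weaker activity that can restrain JUN. It had 155 to 391 CPM with a median of 309 in GFP-HI libraries, against 180 to 383 CPM with a median of 306 in GFP-LO libraries, so that both fractions covered nearly one range. Jund (chr8:70697739-70700616, plus strand, 1 exon) encodes the JUN protein that most cells hold without stimulation. It had 170 to 236 CPM with a median of 191 in GFP-HI libraries, against 168 to 233 CPM with a median of 184 in GFP-LO libraries. Here B3M did not stand apart in either fraction. The log2 differences were -0.10 ± 0.07 for Jun (adjusted p = 0.800), -0.01 ± 0.07 for Junb (adjusted p = 0.979) and 0.02 ± 0.08 for Jund (adjusted p = 0.972). Antisense genes overlap 232 bases of Jun and 877 bases of Jund, so the same limit on strand applies to them.

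Atf3 (chr1:191170297-191183333, minus strand, 4 exons) encodes a stress-induced zipper protein that pairs with JUN proteins. It had 284 to 1090 CPM with a median of 820 in GFP-HI libraries, against 285 to 1011 CPM with a median of 788 in GFP-LO libraries. Both B3M libraries were at the bottom, and the next lowest library of either fraction was B7F, at 625 CPM in GFP-HI and 617 in GFP-LO. The log2 difference between the fractions was 0.03 ± 0.06 (95% interval -0.10 to 0.16, adjusted p = 0.948).

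Of the EGR genes, Egr1 (chr18:34861207-34864956, plus strand, 2 exons) encodes a zinc finger activator induced by growth factors. It had 360 to 1515 CPM with a median of 1183 in GFP-HI libraries, against 464 to 1202 CPM with a median of 868 in GFP-LO libraries. B1M, B5M, B7F and B7M had more Egr1 in GFP-HI, whereas B3M and B4M had less, and the fractions overlapped. Its log2 difference was 0.21 ± 0.11 (95% interval -0.03 to 0.45), with an unadjusted p of 0.0759 and an adjusted p of 0.726. It was 0.12 without B7F and 0.33 without B3M (adjusted p = 0.839 and 0.467). Egr2 (chr10:67537869-67542188, plus strand, 2 exons), a relative known for its role in myelinating Schwann cells, was the lowest of the group. It had 0.656 to 29.2 CPM with a median of 22.6 in GFP-HI libraries, against 7.65 to 21.2 CPM with a median of 13.1 in GFP-LO libraries. The same 4 mice were higher in GFP-HI as for Egr1, and B3M GFP-HI held 5 counts. Its log2 difference was 0.13 ± 0.41 (95% interval -0.76 to 1.02, adjusted p = 0.963), too wide to exclude a change of considerable size in either direction. The Egr2 difference was 0.54 without B3M and -0.06 without B7F (adjusted p = 0.652 and 0.980).

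**Figure D2:**
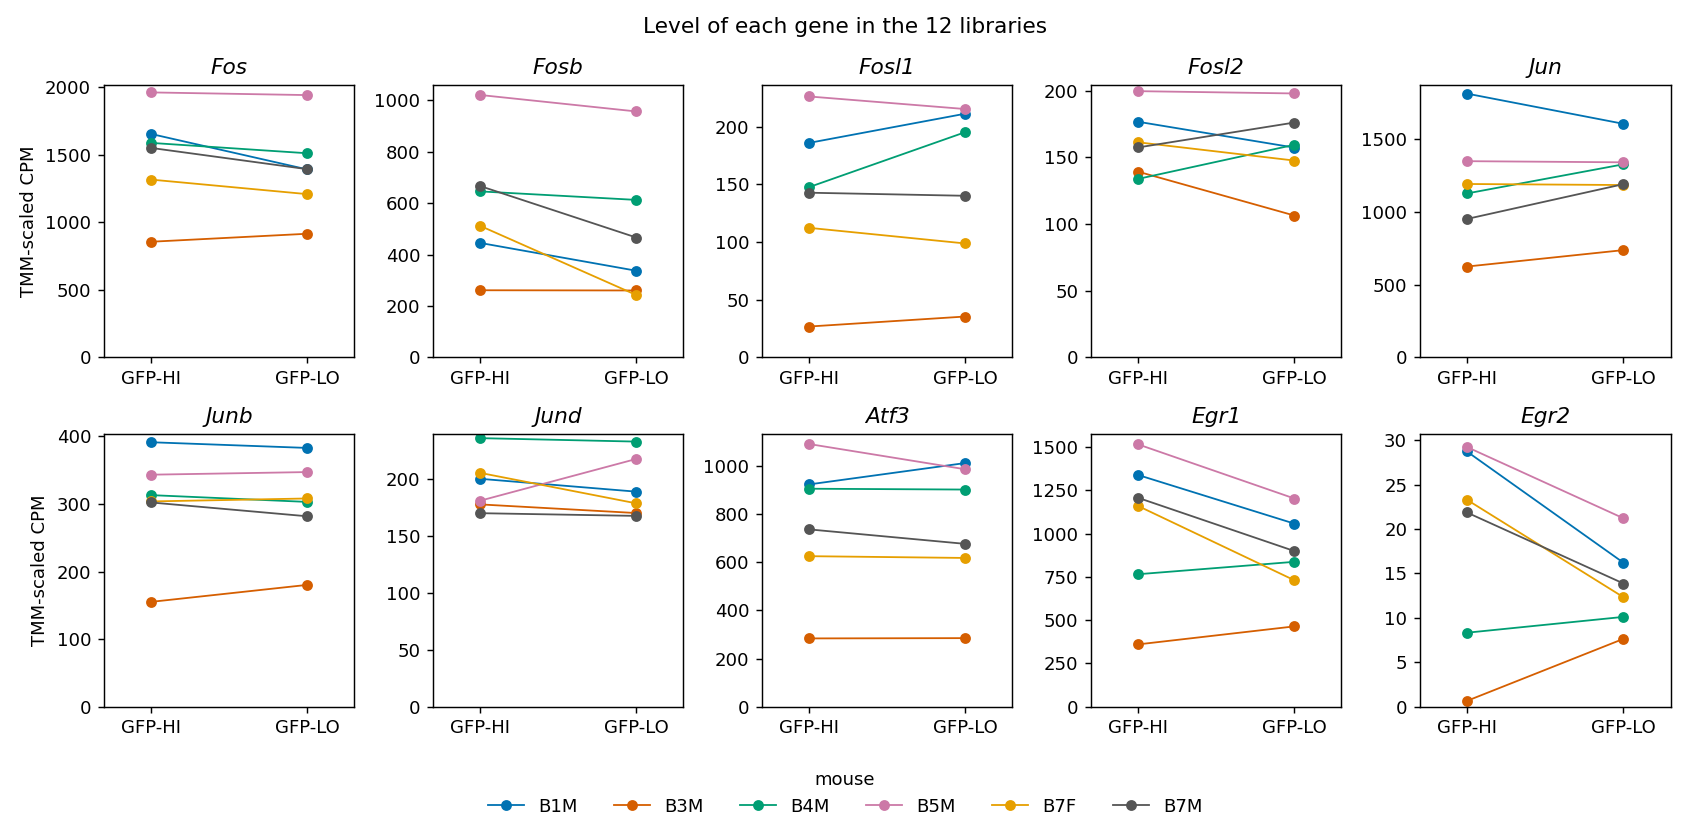
Level of each gene (CPM, linear axis from 0) in GFP-HI on the left and GFP-LO on the right of each panel, with a line joining both libraries of a mouse. Lines are close to flat for Fos, Atf3 and Junb, and all lines of Fosb are level or higher in GFP-HI. The B3M line is lowest in both fractions for Fos, Fosl1, Jun, Junb, Atf3, Egr1 and Egr2.

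Counted over the group, edgeR's quasi-likelihood test called 0 of 10 genes higher and 0 of 10 lower in GFP-HI at an adjusted p below 0.05. Among all 11719 genes tested, 0.469% were called higher and 0.0597% lower, so a count of 0 among 10 is near the background. Fosb was the 1 gene with an unadjusted p below 0.05, against 848 of all 11719 genes. DESeq2 called 0 of 10, with 2 below an unadjusted 0.05. Over the settings run, the number below an unadjusted 0.05 was 0 (no mouse block) to 3 (Fosb, Egr1 and Egr2, without B3M or without B1M and B3M). The log2 difference was above 0 for 7 genes and below 0 for 3, with a median of 0.04, against -0.02 over all genes tested. The 95% intervals of Fos, Jun, Junb, Jund, Atf3, Fosl1 and Fosl2 reached from -0.31 to 0.24 at most, while those of Fosb, Egr1 and Egr2 reached further. A p above the threshold does not show that the fractions were equal.

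**Figure D3:**
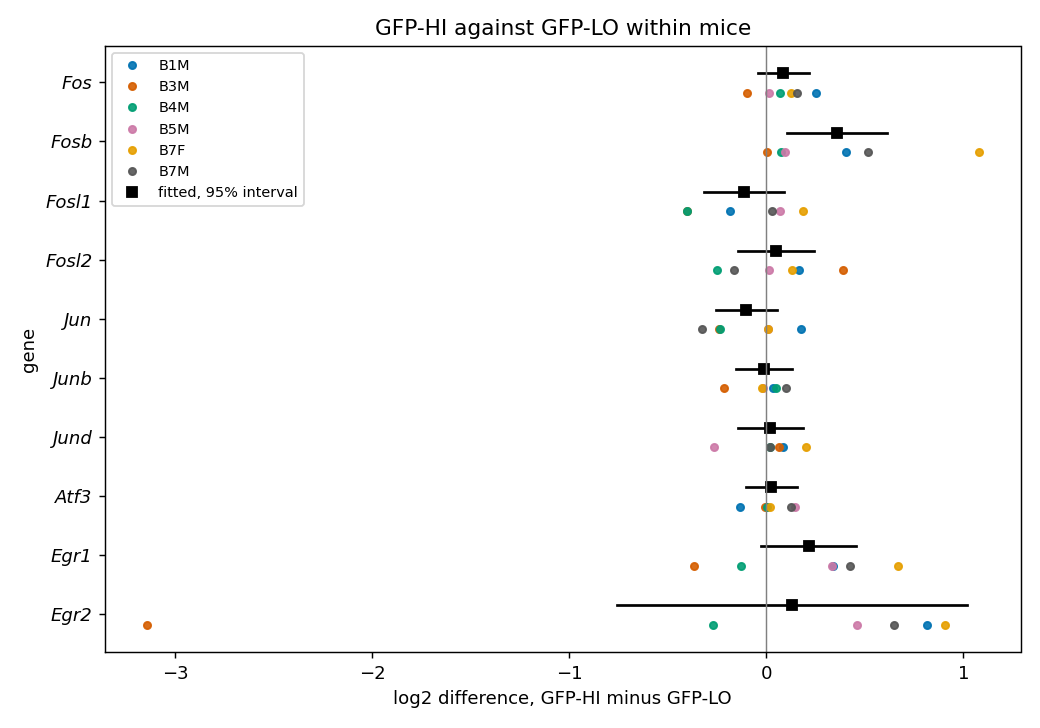
Log2 difference, GFP-HI minus GFP-LO, for each gene: coloured points are single mice, black squares the fitted value with its 95% interval. Only the Fosb interval lies wholly above 0, and B3M lies far to the left for Egr2 at -3.14.

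The levels were then compared between mice, with an F test of the 5 mouse terms in the same fit. This test does not tell apart the animal, its age and the handling of its tissue. It called 7 of 10 genes at an adjusted p below 0.05, against 9.68% of all genes tested. Atf3 (adjusted p = 3.94e-06), Fosl1 (7.71e-06), Fos (2.25e-04), Jun (3.03e-04), Fosb (3.13e-04), Junb (3.20e-04) and Egr1 (0.00113) were called. Fosl2 (adjusted p = 0.0988), Jund (0.178) and Egr2 (0.210) were not. The mouse term took 70.7% to 99.4% of the sum of squares of log2 levels in the 10 genes, with a median of 91.1%, against a median of 58.8% over all genes tested and 45.5% from its degrees of freedom alone.

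The size of the spread between mice ranged widely among the genes. Both libraries of a mouse were averaged on the log2 scale, which gives a geometric mean. By this mean, Egr2 differed 9.48-fold and Fosl1 7.11-fold between the highest and the lowest mouse. The Egr2 value rests largely on B3M GFP-HI, with 5 counts at 0.656 CPM. In GFP-LO libraries Egr2 was 7.65 CPM in B3M and 10.1 to 21.2 CPM in the other mice. Fosb differed 3.78-fold, Atf3 3.64-fold, Egr1 3.30-fold, Jun 2.51-fold, Junb 2.31-fold and Fos 2.204-fold. Fosl2 differed 1.63-fold and Jund 1.39-fold, the narrowest ranges. B3M was the lowest mouse for all but Jund, for which B7M was the lowest. Over all 11719 genes tested, B3M was the lowest for 2435. The highest mouse was B5M for most of the group, B1M for Jun and Junb and B4M for Jund.

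The distance of B3M from the next mouse varied between genes. By the same geometric means, the next lowest mouse was above B3M by 3.55-fold for Egr2 and 3.397-fold for Fosl1. It was above by 2.18-fold for Atf3 and 1.96-fold for Egr1, but by 1.35-fold for Fosb. The Egr2 value again rests largely on the 5 counts in B3M GFP-HI. Without B3M the F test called 5 of 10 genes, against 7.58% of all genes tested in that fit. Fosb (adjusted p = 0.00769), Atf3 (0.00706), Fosl1 (0.0112), Fos (0.0213) and Jun (0.0420) were called between the remaining 5 mice. Egr1 (0.0630) and Junb (0.115) were not called in that fit. With B1M and B3M both left out, Egr1 (0.00604) and Egr2 (0.00452) were called between the remaining mice, and Jun (0.257) and Junb (0.463) were not.

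Summed over the group, B3M held 2884 CPM in its GFP-HI library and 3161 CPM in its GFP-LO library. The other mice held 5609 to 7911 CPM in GFP-HI libraries and 4725 to 7421 CPM in GFP-LO libraries, the top mouse in each fraction being B5M. B1M, which had fewer genes detected than B3M, was second highest in both fractions, at 7152 and 6354 CPM. Rn45s took 34.1% and 35.9% of counts in B3M and 31.5% and 33.8% in B1M, in GFP-HI and GFP-LO. The part of either measure in the B3M levels was not tested, and the labels name no library or sequencing batch.

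**Figure D4:**
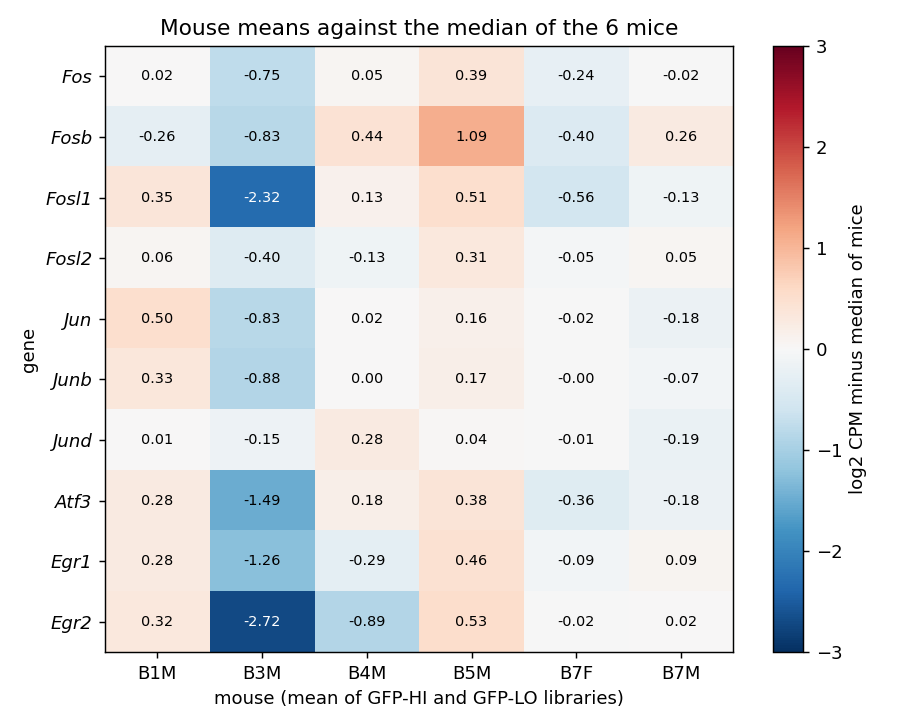
Mean log2 CPM of each gene in each mouse, minus the median of the 6 mice (colour scale and printed value), each cell averaging the GFP-HI and GFP-LO library. The B3M column is negative for all 10 genes, from -2.72 for Egr2 to -0.15 for Jund, and the B5M column is positive for all 10. The Egr2 value of B3M rests largely on 5 counts in its GFP-HI library.

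Other genes of the same response were then set beside the group, in lists chosen with earlier results of these data known. Among 35 other immediate early genes, such as nuclear receptors and feedback phosphatases, 0 were called higher and 0 lower in GFP-HI, with 4 below an unadjusted p of 0.05, and DESeq2 called 0 as well. Over all 11719 genes tested, 848 had an unadjusted p below 0.05. In this list the smallest p were those of Tnfaip3, an inhibitor of NF-κB signalling (log2 difference 0.39, adjusted p = 0.398), and Ier3, a survival factor (0.24, adjusted p = 0.608). Between mice 25 of the 35 were called, 71.4% of the list, and 14 of 35 without B3M. Over all genes tested these shares were 9.68% and 7.58%. B3M was the lowest mouse for 29 of the 35, against 2435 of the 11719 genes tested. Nr4a1, an inducible nuclear receptor, was picked here after its values were seen. Its geometric mean over both libraries was 111 CPM in B3M and 212 to 360 CPM in the other mice.

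The other zipper partners and the upstream pathway were near the background of all genes in the comparison between mice. Of 22 further bZIP genes 19 were tested, 0 were called in either direction between fractions and 2 between mice, Atf4 (adjusted p = 0.00132) and Atf6 (0.00581), 10.5% of the list, both named after their values were seen. DESeq2 called 0 between fractions too, and 3 genes had an unadjusted p below 0.05. Cebpd (log2 difference 0.53, adjusted p = 0.375) and Nfe2l1 (0.29, adjusted p = 0.497), both stress-responsive zipper factors, had the smallest p between fractions. Of 27 tested kinases and SRF or TCF factors, which act above the group, 0 were called between fractions by edgeR or by DESeq2, and 0 had an unadjusted p below 0.05. Map2k1, which encodes the kinase MEK1 (log2 difference -0.31, adjusted p = 0.711), and Mapk14, which encodes the stress kinase p38α (0.26, adjusted p = 0.711), came first. Mapk8, which encodes the kinase JNK1 that phosphorylates JUN, was the 1 gene of this list called between mice (adjusted p = 0.0177), 3.70% of it, and 0 of 27 were called without B3M or without B5M. It too was named after its values were seen.

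Of 26 genes known as AP-1 or EGR targets in keratinocytes 18 were tested, and 1 was called higher and 0 lower in GFP-HI. Over all genes tested, 0.469% were called higher and 0.0597% lower. The gene called in the list was Cxcl1, a neutrophil chemokine, with a log2 difference of 0.73 ± 0.12 (adjusted p = 0.0142) and 6 of 6 mice higher in GFP-HI. The call was lost when the mouse was not a block and when B4M, B7F or B7M was left out, and it held in the other settings run. Over all genes, those called higher fell from 55 to 0 without the block. They fell to 30, 40 and 44 without B4M, B7F and B7M. Ccnd1, which encodes cyclin D1 and was picked after its values were seen, was called lower in GFP-HI by DESeq2, with no count filter and without B1M. Of the 18 genes, 7 had an unadjusted p below 0.05, against 848 of all 11719, and the list's median log2 difference was 0.12, against -0.02 over all genes. Between mice 10 of the 18 were called (55.6%), 8 without B3M and 6 without B5M. Over all genes tested the shares were 9.68% and 7.58% without B3M, and 684 of 11654 were called without B5M. B3M was the lowest mouse for 8 of the 18, against 2435 of 11719.

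Heat shock and dissociation stress genes were the last list. Of 19 genes, 0 were called higher and 0 lower in GFP-HI, and DESeq2 called 0. An unadjusted p below 0.05 was found for 3, against 848 of all 11719 genes tested. Socs3, a feedback inhibitor of cytokine signalling, had the smallest p (log2 difference -0.33, adjusted p = 0.429). Between mice 13 of the 19 were called (68.4%), and 8 without B3M, against 9.68% and 7.58% of all genes tested. The summed level of the 19 genes in GFP-HI libraries was 7223 CPM in B3M and 7799 to 11793 CPM in the other mice. In GFP-LO libraries it was 6911 CPM in B3M and 7942 to 10931 CPM in the other mice. B3M was the lowest mouse for 12 of the 19, against 2435 of 11719. The chaperone Hspa1a was picked after its values were seen. Its geometric mean over both libraries was 957 CPM in B3M and 761 to 1062 CPM in the other mice.

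**Figure D5:**
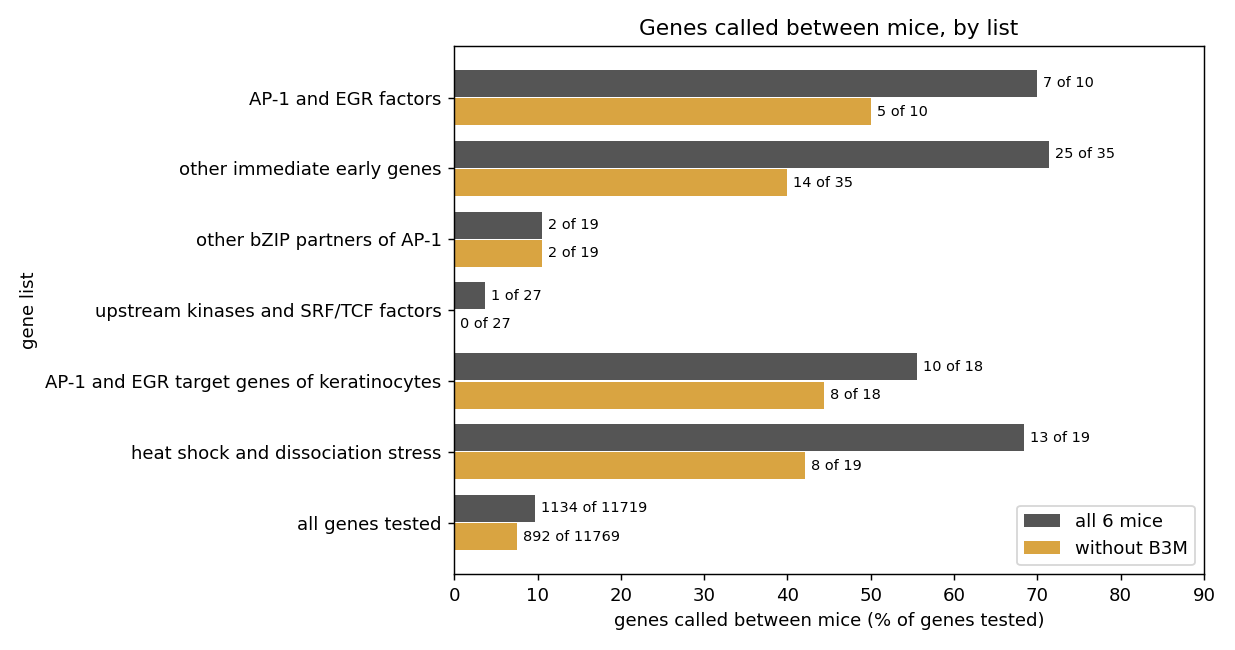
Share of tested genes called between mice (percent, linear axis) for the 10 factors, for 5 related lists and for all genes, with dark bars for all 6 mice and light bars without B3M. The factors (7 of 10), the other immediate early genes (25 of 35) and the heat shock list (13 of 19) lie far above all genes (9.68%), and the kinases and SRF or TCF factors (1 of 27) below.

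The mean profile of the 10 over 12 libraries was taken on log2 CPM minus the mean of each fraction. A difference between the fraction means thus does not enter r. Among 9553 other genes with a mean of at least 5 CPM, those most like the profile were ranked by Pearson's r. Libraries of a mouse share an animal, so r is given as a description. The top 8 were Ccdc85b (r = 0.977), Slc25a25 (0.972), Csrnp1 (0.967), Zfp131 (0.959), Trib1 (0.959), Ifrd1 (0.956), Rasgef1b (0.952) and Epha2 (0.951). Ccdc85b is the gene whose exons overlap Fosl1. Slc25a25, a mitochondrial carrier, had 21.4 and 22.1 CPM in B3M GFP-HI and GFP-LO, against 50.8 to 116 CPM in the other 10 libraries. Without B3M the r of these 8 genes fell to between 0.690 and 0.927, the highest being that of Ccdc85b. In that ranking Ccdc85b held rank 3 and Slc25a25 rank 10. The other named genes lay between rank 33 (Trib1) and rank 194 (Rasgef1b).

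Within the group, Fosl1 followed the mean of the other 9 most closely (r = 0.966), then Egr1 (0.962), Fos (0.953), Junb (0.938), Atf3 (0.938), Jun (0.866), Egr2 (0.810), Fosl2 (0.748) and Fosb (0.719). Jund followed it least (r = 0.360). These r also used log2 CPM minus the mean of each fraction. Without B3M, r was 0.861 for Fosl1, 0.855 for Fos, 0.808 for Egr1, 0.805 for Fosl2 and 0.749 for Atf3. It was 0.588 for Junb, 0.507 for Fosb, 0.477 for Jun, 0.475 for Egr2 and 0.060 for Jund.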

How the data were processed

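The deposited table held raw counts per gene from featureCounts, per the submitters' processing notes, with bcl2fastq 2.20.0 and reads placed on mm10. The aligner, the strand setting and the treatment of multiply mapped reads are not stated in the labels or notes used. Groups and mice came from the sample titles, and both libraries of a pair carry 1 animal code. As a check of the pairing, deviations from group means correlated at 0.225 to 0.494 within a mouse, each above that mouse's highest correlation with another mouse.

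Genes were kept with edgeR 4.0.16 filterByExpr (minimum count 10, total 15), scaled by TMM and fitted with mouse and fraction in the robust quasi-likelihood test, in R 4.3.3, with Benjamini-Hochberg adjustment over all 11719 genes. Differences and means per mouse used log2 CPM with a prior count of 2. The script was tested on simulated data. Alternatives were DESeq2 1.42.0, other scaling and filters, no mouse block and left-out mice. The members and lists were chosen with earlier results of these data known. In each list, genes called between fractions were named, otherwise the 2 with the smallest p, and exceptions are marked. The result of 1 such gene is not reported here. RefSeq promoters were matched by symbol.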

Additional observations from a re-analysis of the deposited data

Results flagged for a closer look

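Dixon's criterion was applied to values on the log2 scale, in 30 groups of 6. The groups were each gene in GFP-HI, in GFP-LO and as a difference between them. In 4 groups a value lay far from the others, where chance gives about 1 in 20. All of these values came from B3M. Levels below are printed as CPM, a scale on which the criterion was not applied. Fosl1 was 26.8 CPM in B3M GFP-HI and 112 to 226 CPM in the other GFP-HI libraries. Junb was 155 CPM in B3M GFP-HI and 302 to 391 CPM in the others. Egr2 was 0.656 CPM in B3M GFP-HI and 8.33 to 29.2 CPM in the others. The log2 difference of Egr2, GFP-HI minus GFP-LO, was -3.14 in B3M and -0.27 to 0.91 in the other mice. It rests on the same 5 counts in B3M GFP-HI as the Egr2 level, so these flags are not separate.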

How the results depend on the processing

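The count of factors called between fractions was 0 higher and 0 lower in the main analysis, and 1 higher (Fosb) with no count filter. The other alternatives run gave 0, among them DESeq2. The cause of these changes was not tested. Without the mouse as a replicate block, 0 of 10 were called and the Junb difference became 0.0047 (log2). The number called between mice was 5 to 9 against 7, lowest without B3M and highest with no count filter or DESeq2; with B1M and B3M both left out it was 6, with Jun and Junb lost and Egr2 gained. Some differences near 0 changed sign. Leaving out 1 mouse gave Fosb 0.2196 to 0.4348, Egr1 0.1235 to 0.3326, Fosl2 -0.0167 to 0.1048, Junb -0.0307 to 0.0327, Jund -0.0155 to 0.0774 and Egr2 -0.0594 to 0.5413. With B1M and B3M both left out the differences were -0.069 for Fosl2, 0.0265 for Junb and -0.0082 for Jund. Over all genes, 55 higher and 7 lower became 0 and 0 without the block, 127 and 45 with no filter, 120 and 23 with DESeq2, 117 and 34 without B1M and B3M, and 29 to 81 and 2 to 14 with 1 mouse left out (29 and 4 without B3M, 30 and 2 without B4M, 81 and 14 without B1M). Between mice, 1134 genes became 2338 with no filter, 2029 with DESeq2, 1754 without B1M and B3M, and 684 to 1527 with 1 mouse left out, lowest without B5M. Depth limits Egr2 most, at 5 counts in 1 library.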
